A study of Mus musculus with 17 samples.

Results

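The mirtron-series 5p miRNAs are the mature mouse miRNAs named miR-N-5p whose whole number N lies between those of miR-6896-5p and miR-7094-5p, both included, a block of names that holds many short hairpins at intron ends. By that name rule alone 179 of the 1487 small RNAs counted in the study were members, and the count table also listed 150 of the 3p arms from the same numbers and 1110 other mature miRNAs. Small RNA was sequenced from exosomes (small vesicles shed by cells) isolated from mouse feces. All mice were interleukin-10 knockouts (IL-10 KO) on the C57BL/6J strain, a line that lacks an anti-inflammatory cytokine and is used as a model of colitis, and they were obtained at 4 weeks of age. The start-point group held 10 libraries (7 male, 3 female) and the end-point group 7 libraries (5 male, 2 female); both groups carry the same deletion and the labels give no further treatment. No wild-type library was analysed here, so each comparison is between time points or sexes within the knockout.

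A mirtron is a short intron, or the end of a longer one, that folds into a hairpin once the spliceosome has cut it out, and so skips the Drosha cleavage that releases most miRNA hairpins before Dicer cuts both arms free. In a tailed mirtron the hairpin sits at one end of the intron and the tail is trimmed away. The 5p arm lies on the side of the hairpin that begins nearer to the donor splice site, and the 3p arm usually carries the pyrimidine-rich stretch and the AG of the acceptor site.

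The sequences below are those of the 5p arms called at the end-point and described in full, shown because the levels below are theirs; they were chosen by p, not by the size of the change; capitals mark the seed, bases 2 to 8 from the 5′ end, with which a miRNA pairs with its targets. Sequences and positions came from RefSeq on GRCm38.p6, and introns from GENCODE on the same mouse build, GRCm38. Among those that rose, the following 12 had the smallest p.
miR-6916-5p, chr10:128512005-128512025, minus strand, acceptor end of a 90-base intron of Esyt1: cAGGAGGAuggagaugaguca
miR-7009-5p, chr3:36475498-36475519, minus strand, acceptor end of a 112-base intron of Anxa5: uUGGGGUCaggggaccagagcu
miR-6958-5p, chr15:89185516-89185537, minus strand, spanning an intron of Dennd6b: gUGGGAGAagaggcugcugugg
miR-6912-5p, chr10:80609265-80609286, plus strand, acceptor end of a 479-base intron of Scamp4: uACAGGGAgggugcucaggcag
miR-6919-5p, chr11:50232250-50232272, plus strand, acceptor end of a 169-base intron of Mgat4b: uAGGCCACuggagguggaauugu
miR-7078-5p, chr8:117459270-117459289, plus strand, acceptor end of a 2371-base intron of Cmip: uGUGGGUGguaggagacgcu
miR-7000-5p, chr2:92387420-92387441, minus strand, acceptor end of a 170-base intron of Mapk8ip1: aGGGGACAgguaucuggacaga
miR-7017-5p, chr4:133195660-133195683, plus strand, acceptor end of a 809-base intron of Wasf2: aGAGGGUUgugagacuagggcugu
miR-7082-5p, chr9:21075563-21075583, minus strand, spanning an intron of Raver1: uACGGGCAggaggaggggagg
miR-7038-5p, chr5:140427344-140427365, plus strand, acceptor end of a 264-base intron of Eif3b: uGUAGAAGgaagggcugcugug
miR-7001-5p, chr2:93421980-93422002, minus strand, acceptor end of a 8016-base intron of Cd82: aGGCAGGGugugagcgugagcau
miR-6932-5p, chr11:107637727-107637748, plus strand, acceptor end of a 1468-base intron of Helz: uUGUAGGUgaaguagacuuggc
Of the 12 with the smallest p among those that fell, these 10 had a sequence, and miR-6983-5p and miR-6970-5p are named only.
miR-6994-5p, chr19:11923733-11923755, plus strand, acceptor end of a 324-base intron of Patl1: aCAAAGGUgggugaagccgguga
miR-7010-5p, chr3:82106284-82106305, minus strand, acceptor end of a 2346-base intron of Gucy1a1: cGGAAAGGauugggaaacuuga
miR-7018-5p, chr4:137538286-137538309, plus strand, spanning an intron of Hspg2: gUGAGCAGacagggaguggugggg
miR-7028-5p, chr5:114719515-114719537, plus strand, acceptor end of a 1118-base intron of Tchp: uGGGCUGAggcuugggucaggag
miR-7052-5p, chr7:44470352-44470372, plus strand, acceptor end of a 239-base intron of Josd2: uGUGGGAAgguggaggccuuu
miR-7007-5p, chr3:20222332-20222354, minus strand, acceptor end of a 942-base intron of Cpa3: uCAGAAGAggcaguggaggagau
miR-6997-5p, chr2:29995955-29995976, plus strand, acceptor end of a 443-base intron of Sptan1: uAACAGGCuggagaggugcaga
miR-6897-5p, chr1:36144290-36144312, minus strand, acceptor end of a 1780-base intron of Uggt1: uGGGGGCAgugucacacgcuguu
miR-6903-5p, chr1:133726619-133726640, minus strand, overlapping an exon of Atp2b4: uUGGGAAAagcaguacuuacca
miR-6936-5p, chr11:120624856-120624876, minus strand, donor end of an intron of Sirt7: gUGAGCCAcugccgugcccgc

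Whole hairpins show the geometry behind the name. Of the pair below, miR-7018 spans an entire intron and miR-6916 sits at the acceptor end of one, with the 5p arm in capitals.
miR-7018 hairpin, chr4:137538286-137538370, plus strand: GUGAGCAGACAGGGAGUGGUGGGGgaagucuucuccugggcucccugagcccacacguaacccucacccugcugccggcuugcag
miR-6916 hairpin, chr10:128511968-128512030, minus strand: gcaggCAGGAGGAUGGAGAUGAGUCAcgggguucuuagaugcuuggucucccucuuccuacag
The miR-7018 hairpin opens with the GU of the donor site and closes with the AG of the acceptor site of an 85-base intron of Hspg2, the gene of the basement membrane proteoglycan perlecan. The miR-6916 hairpin fills the last 63 bases of a 90-base intron of Esyt1, which encodes a tether between the endoplasmic reticulum and the plasma membrane.

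RefSeq placed hairpins for 162 of the 179 members, and these were set against the introns with a tolerance of 5 bases. The hairpins sat at the acceptor end of a longer intron in 143 members, spanned a whole intron in 10, overlapped an exon in 6 and sat at the donor end in 3. The name mirtron in its strict sense, a hairpin that is the whole intron, therefore applied to 10 of the 162, and most members were hairpins with a 5′ tail. In 152 of the 162 the last hairpin base was exactly the last base of the intron. Host introns at the acceptor-end members ran from 77 to 36269 bases with a median of 580.0, and the whole-intron hosts from 67 to 96 bases. Only 11 mature members began at the first base of the intron, and 10 of those 11 began with GU.

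The mature 5p arms were rich in G. Over the 159 members with a sequence the median G content was 45.5%, against 14.3% over 136 of the 3p arms and 27.3% over 959 other miRNAs. A run of GGGG stood in 62 of the 159 (39.0%), in 0.735% of the 3p arms and in 10.8% of the other miRNAs. U was the first base in 77 members, A in 38, C in 26 and G in 18. The 3p arms ended at the last intron base in 95 of 136, and 105 of 136 ended in AG. By change, the median G content was 47.6% in 28 that rose and 43.5% in 23 that fell, and across 148 members, which share libraries and are not replicates, Pearson's r of G content with the log2 fold change was 0.10 and Spearman's rho 0.08.

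Counts were low per library. Total counts ran from 87527 to 178075 at the start-point and from 32320 to 161862 at the end-point, where 3 libraries (numbers 1, 3 and 7) held fewer than 75000 counts. The TMM factors, which scale each library to the others, ran from 0.763 to 1.92 and from 0.419 to 1.47, the lowest in end-point library 2. A count of 3 corresponded to between 11.6 and 34.6 normalized CPM (counts scaled to the library's total and TMM factor) at the start-point and between 27.0 and 64.3 CPM at the end-point, so low levels at the end-point rest on few reads. The first and second end-point libraries are both labelled as mouse 1 and differed widely in some members: miR-7078-5p stood at 17078 CPM in the first and 157451 CPM in the second, and miR-6976-5p at 224 and 19279 CPM. Feces carry RNA of many cell types, and fewer cells of a type and less RNA per cell cannot be told apart in such bulk samples.

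The members took up a modest part of the miRNA counts. At the start-point they held 7.44% in the lowest library, 10.5% in the median and 15.7% in the highest, and at the end-point 11.2%, 14.8% and 22.2%. The mean share was 11.1 ± 2.93% (SD, n = 10) and 16.2 ± 4.13% (SD, n = 7), and it was higher at the end-point in 6 of 6 mice, although the groups overlapped. A single member made most of that difference: without miR-7078-5p the difference fell from 5.14 to 1.34 percentage points and was upward in 3 of 6 mice. What was left still held miR-6916-5p, whose mean share of all member counts was 0.106% at the start-point and 16.1% at the end-point. The share without both members was not computed. The share of the 3p arms of the same series went down, from a mean of 20.6 ± 6.72% (SD, n = 10) to 12.4 ± 4.70% (SD, n = 7), lower in 5 of 6 mice. The summed 5p counts were 0.461 ± 0.156 times the summed 3p counts at the start-point (SD, n = 10) and 0.984 ± 0.495 times at the end-point (SD, n = 7).

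**Figure D1:**
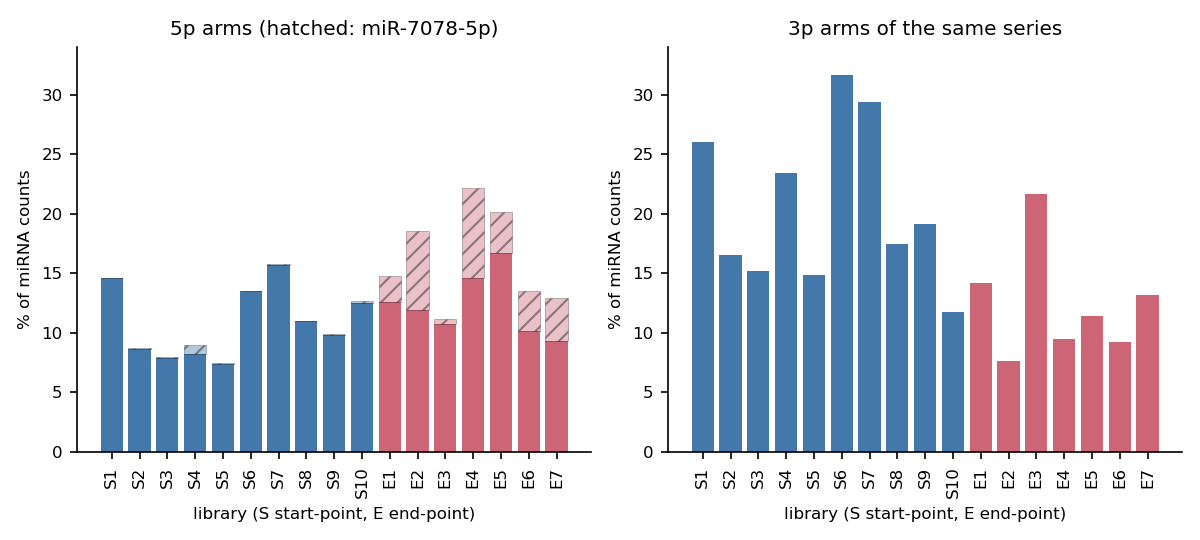
Share of each library's miRNA counts, in percent, held by the 179 mirtron-series 5p arms (left) and by the 150 listed 3p arms (right); bars are single libraries, blue for start-point and red for end-point, and hatching marks miR-7078-5p. The 5p bars run from 7.44% to 15.7% at the start-point and from 11.2% to 22.2% at the end-point, and the hatched part is wide only at the end-point.

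Fewer members were detected at the end-point. After each library was drawn at random to 32320 counts, the lowest, median and highest numbers of members with at least 1 count were 163, 170.5 and 176 at the start-point and 140, 149 and 160 at the end-point, lower in all 6 mice. This was not particular to the series: the mean share detected fell from 95.0% to 83.5% of the members and from 92.1% to 78.0% of the other miRNAs. Without the 3 shallow end-point libraries and with a deeper draw the difference was −6.0 members, against −20.7 over all libraries.

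Levels differed widely among the members. Mean normalized CPM ran from 22.3 to 24427; over the 17 libraries it lay over 1000 in 21 members, from 100 to 1000 in 131 and under 100 in 27, with a median of 248 against 215 for the other miRNAs. The top 3 members by counts held 32.8% of all member counts. The highest by mean CPM was miR-7078-5p, which ranked 3 among all small RNAs listed, followed by miR-6916-5p at rank 5, miR-6976-5p at rank 7, miR-6898-5p at rank 21, miR-6966-5p at rank 44 and miR-7018-5p at rank 45. These ranks are a description of means that single libraries dominate.

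Between the time points 59 of the 167 tested members were called (35.3%), 32 higher and 27 lower at the end-point, by edgeR's quasi-likelihood test with Benjamini-Hochberg adjusted p under 0.05 over all 1270 small RNAs tested. Over all tested small RNAs 33.8% were called, 17.4% higher and 16.4% lower, so the members' share stood near the background. The median log2 fold change was −0.10 over the tested members and −0.18 over all tested small RNAs. Among the 59 the median size of the log2 fold change was 1.96, with 10 past 3 upward and 1 past 3 downward. The 12 untested members had too few counts, with at most 79 in any library.

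The balance of rises and falls depended on the scaling. With library totals alone in place of TMM factors, 21 members were called higher and 45 lower, 31.8% higher against 54.2%, and the median of all small RNAs moved by −0.47. In that fit 12.0% of all small RNAs were called higher and 25.8% lower, so the members again stood near the background. With mouse identity as a block, which uses the 6 mice sampled at both time points, 8 members were called higher and 8 lower, against a background of 8.35%. Of the 59 called members, 58 kept their direction under the block, which draws on the same libraries and so is not separate support. The exception was miR-6993-5p, called higher without the block (2.86, edgeR adjusted p = 0.0115) and at −0.18 with it (adjusted p = 0.915). Its end-point library 4 held 28983 CPM. The other end-point libraries ran from 148 to 869 CPM, against 270 to 1402 CPM at the start-point. The 8 that rose in both fits were miR-6912-5p, miR-6916-5p, miR-6958-5p, miR-6963-5p, miR-6982-5p, miR-7009-5p, miR-7017-5p and miR-7078-5p, and the 8 that fell in both were miR-6983-5p, miR-6994-5p, miR-7007-5p, miR-7010-5p, miR-7018-5p, miR-7028-5p, miR-7030-5p and miR-7052-5p.

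**Figure D2:**
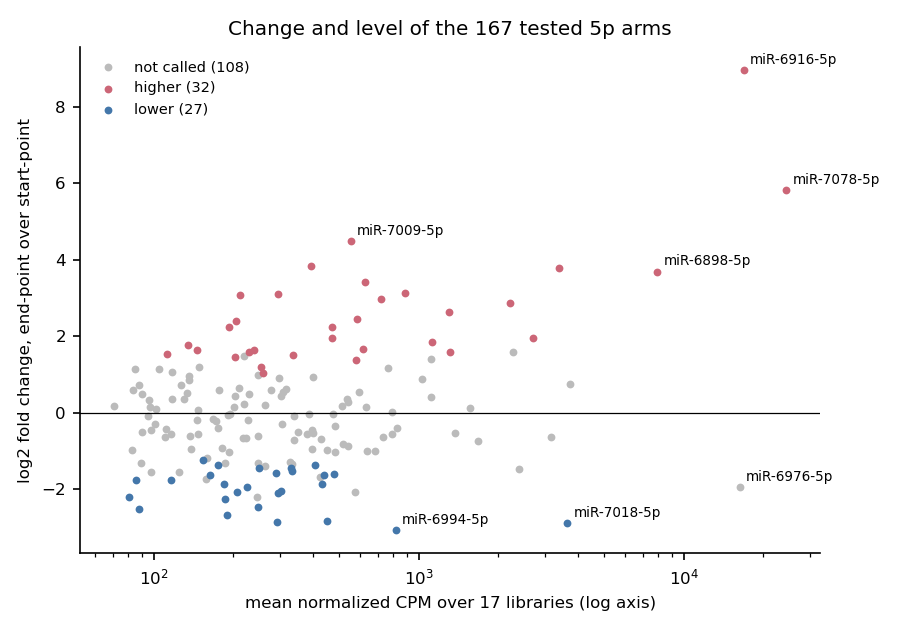
Log2 fold change (end-point over start-point) against mean normalized CPM over 17 libraries (log axis) for the 167 tested 5p arms; each point is 1 member, red for the 32 called higher, blue for the 27 called lower and grey for the 108 not called. miR-6916-5p, at 8.97, and miR-7078-5p, at 5.82, stand far above the rest at high level.

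Levels of single members are given as the lowest, median and highest library of a group. miR-6916-5p rose most. Its lowest, median and highest levels were 38.5, 65.5 and 170.0 CPM at the start-point and 1479, 30457 and 121876 CPM at the end-point. Every end-point library stood above every start-point library. The log2 fold change was 8.97 ± 0.83 (SE, edgeR adjusted p = 8.05e-08), higher in 6 of 6 mice. Its median share of all member counts went from 0.103% to 14.0%.

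miR-7078-5p, from an intron of Cmip, the gene of a signalling adaptor, had the highest mean level over the 17 libraries. That rank came from the end-point, since at the start-point its median was below those of miR-6933-5p (4051 CPM), miR-6966-5p (2995 CPM) and miR-7018-5p (2739.7 CPM). Its levels were 65.4, 335 and 7227 CPM at the start-point and 2851, 40627 and 157451 CPM at the end-point (lowest, median, highest). The groups overlapped through start-point library 4 alone, which held the value of 7227 CPM while the other start-point libraries lay at or below 625.2 CPM. The log2 fold change was 5.82 ± 1.01 (SE, edgeR adjusted p = 2.04e-04), and 7.41 without that library. The neighbouring miR-7077-5p, from the same host gene, was not called (1.18 ± 0.57, SE, adjusted p = 0.107).

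miR-7009-5p lies in an intron of Anxa5, which encodes the phosphatidylserine-binding annexin A5. It ran at 32.7, 46.6 and 89.9 CPM at the start-point and at 150.1, 1329 and 2616 CPM at the end-point (lowest, median, highest). The groups did not overlap. The log2 fold change was 4.48 ± 0.47 (SE, edgeR adjusted p = 3.76e-07), higher in 6 of 6 mice.

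Another group rose from low start-point levels. miR-6958-5p, a whole-intron mirtron of the DENN-domain gene Dennd6b, ran at 25.5, 58.2 and 104 CPM and then at 33.2, 757 and 1789 CPM (lowest, median, highest; 3.84 ± 0.49, SE; adjusted p = 3.99e-06). miR-6912-5p, from the secretory carrier membrane protein gene Scamp4, ran at 11.5, 38.6 and 158 CPM and then at 127, 232 and 1349 CPM (3.09 ± 0.51, SE; adjusted p = 1.09e-04). In both, 6 of the 7 end-point libraries stood above the whole start-point range. All 6 mice went up in both, with the end-point libraries of mouse 1 averaged. For miR-6958-5p the second of those, at 33.2 CPM, stood below the start-point level of that mouse, 65.4 CPM. miR-7017-5p, from the actin regulator gene Wasf2, ran at 50.2, 177 and 418 CPM and then at 261, 859 and 2727 CPM, again with 6 of 7 above the start-point range (2.45 ± 0.50, SE; adjusted p = 8.13e-04).

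For the other 6 of the 12, the call was lost with the mouse block. miR-6919-5p, from the glycosyltransferase gene Mgat4b, ran at 79.5, 111 and 232 CPM at the start-point and 66.3, 364 and 3964 CPM at the end-point (3.41 ± 0.59, SE; adjusted p = 1.90e-04; with the block 0.0940). miR-7000-5p, from the JNK scaffold gene Mapk8ip1, went from 40.9, 61.4 and 115 CPM to 0, 266 and 2364 CPM (3.10 ± 0.61, SE; adjusted p = 5.97e-04; with the block 0.0785). miR-7082-5p, from the ribonucleoprotein gene Raver1, went from 16.5, 71.3 and 134 CPM to 31.7, 224 and 1078 CPM (2.41 ± 0.52, SE; adjusted p = 0.00111; with the block 0.0890). In these 3 the end-point libraries scattered from within the start-point range, or below it, to far above it.

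The last 3 started from higher levels. miR-7038-5p, from the translation initiation factor gene Eif3b, ran at 154, 455 and 1451 CPM and then at 42.9, 3553 and 31124 CPM (3.78 ± 0.84, SE; adjusted p = 0.00165; with the block 0.242). miR-7001-5p, from the tetraspanin gene Cd82, ran at 93.5, 165 and 391 CPM and then at 0, 698 and 6964 CPM (3.12 ± 0.71, SE; adjusted p = 0.00186; with the block 0.188). miR-6932-5p, from the RNA helicase gene Helz, ran at 81.1, 270.3 and 1148 CPM and then at 281, 1179 and 6865 CPM (2.63 ± 0.60, SE; adjusted p = 0.00192; with the block 0.134). In each of the 3, 4 of 7 end-point libraries stood above every start-point library. By limma-voom the calls of miR-7000-5p, miR-7038-5p and miR-7001-5p were lost (adjusted p = 0.0789, 0.184 and 0.255), and that of miR-7082-5p without the libraries under 75000 counts (0.135). Of all 32 that rose, 17 went up in all 6 mice and 25 in at least 5. The calls came from these same libraries, so the counts of mice are a description and not separate support.

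**Figure D3:**
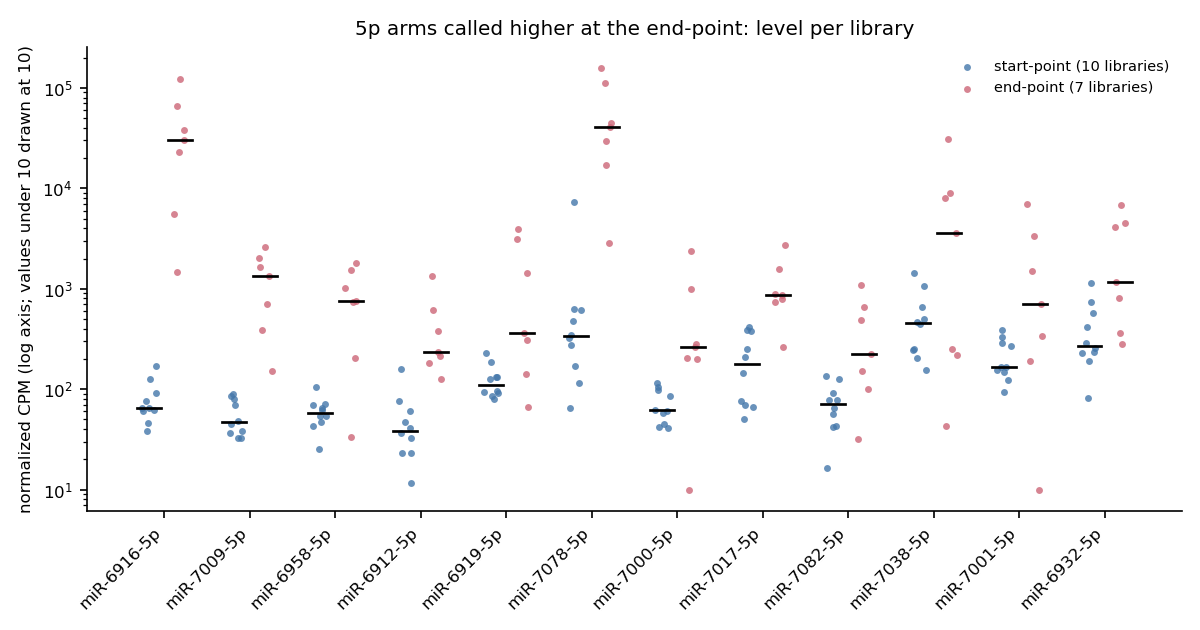
Normalized CPM (log axis) in each library of 12 members called higher, those with the smallest p; blue points are the 10 start-point and red points the 7 end-point libraries, black bars are medians, and values under 10 are drawn at 10. Only miR-6916-5p and miR-7009-5p show no overlap between the groups.

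For the 27 that fell, the median of their start-point medians was 289 CPM and that of their end-point medians 79.3 CPM, against 165 and 399.8 CPM for the 32 that rose. Sorting members by the change itself favours such a contrast in start-point level, so it is a description only. In all, 11 of the 27 had 0 counts in at least 1 end-point library. In 18 of the 27 all 6 mice went down, and in all 27 at least 5 did, again in the libraries that gave the calls. Groups did not overlap in 5 tested members, miR-6916-5p and miR-7009-5p upward and miR-6903-5p, miR-6983-5p and miR-7052-5p downward, against a background of 3.46% of tested small RNAs (1.34% upward, 2.13% downward).

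miR-6983-5p had the smallest p of the 27. Its levels were 195, 405 and 736 CPM at the start-point and 33.2, 88.6 and 174 CPM at the end-point (lowest, median, highest). Every end-point library stood below every start-point library. The log2 fold change was −2.09 ± 0.38 (SE, edgeR adjusted p = 2.87e-04), and end-point counts were 2 to 12 per library.

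miR-6994-5p, from the mRNA decay gene Patl1, had the most negative log2 fold change of those called lower. Its levels were 249, 531 and 5901 CPM at the start-point and 88.6, 153 and 294 CPM at the end-point (−3.08 ± 0.64, SE; adjusted p = 8.98e-04). miR-7018-5p, the perlecan mirtron printed above as a hairpin, had the highest mean level of those that fell, at 1129, 2739.7 and 18275 CPM and then 351, 763 and 1243 CPM (−2.89 ± 0.64, SE; adjusted p = 0.00155). In both, 6 of 7 end-point libraries stood below the start-point range and all 6 mice went down.

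miR-7010-5p lies in Gucy1a1, a subunit gene of the nitric oxide receptor guanylate cyclase. It ran at 213, 402 and 795 CPM and then at 28.0, 95.1 and 232 CPM (−2.04 ± 0.44, SE; adjusted p = 0.00125). miR-7028-5p, from the keratin-binding protein gene Tchp, ran at 109.7, 250.1 and 1314 CPM and then at 0, 56.0 and 166 CPM (−2.86 ± 0.66, SE; adjusted p = 0.00192). Both fell in 6 of 6 mice, with 6 of 7 end-point libraries below the start-point range. Their end-point values rest on few reads, 2 to 14 counts per library for miR-7010-5p and 0 to 10 for miR-7028-5p. miR-7007-5p, from the mast cell carboxypeptidase gene Cpa3, ran at 380.4, 562 and 1034 CPM and then at 31.7, 135 and 429 CPM (−1.87 ± 0.44, SE; adjusted p = 0.00235). miR-7052-5p, from the deubiquitinase gene Josd2, ran at 413, 596 and 918 CPM and then at 63.4, 199 and 324 CPM (−1.61 ± 0.37, SE; adjusted p = 0.00199). Its groups did not overlap. With the block and the second mouse 1 library out, miR-7018-5p and miR-7052-5p lost their calls (adjusted p = 0.0783 and 0.0633).

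The other 5 of the 12 lost the call with the mouse block. miR-6997-5p, from the spectrin gene Sptan1, ran at 81.8, 250.0 and 606 CPM and then at 0, 47.1 and 82.9 CPM (−2.68 ± 0.65, SE; adjusted p = 0.00251; with the block 0.0578). miR-6970-5p ran at 89.9, 217 and 413 CPM and then at 28.0, 80.9 and 133 CPM (−1.63 ± 0.40, SE; adjusted p = 0.00286; with the block 0.100). miR-6897-5p, from the glycoprotein folding sensor gene Uggt1, ran at 93.5, 191 and 2733 CPM and then at 14.8, 79.3 and 236 CPM (−2.83 ± 0.74, SE; adjusted p = 0.00532; with the block 0.0723). In all 3 the end-point values rest on 13 or fewer counts per library.

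miR-6903-5p overlaps an exon of the calcium pump gene Atp2b4. It ran at 69.2, 112 and 329.9 CPM and then at 0, 27.0 and 49.7 CPM (−2.51 ± 0.69, SE; adjusted p = 0.00647; with the block 0.0655). Its groups did not overlap, but 3 end-point libraries had 0 counts and the highest had 4, and with 1 library left out it passed the count filter in 13 of 17 fits, being called in all 13. miR-6936-5p, at the donor end of an intron of the deacetylase gene Sirt7, ran at 92.6, 203 and 380.4 CPM and then at 42.9, 95.1 and 141 CPM (−1.37 ± 0.38, SE; adjusted p = 0.00780; with the block 0.133), with 3 of 7 end-point libraries below the start-point range.

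**Figure D4:**
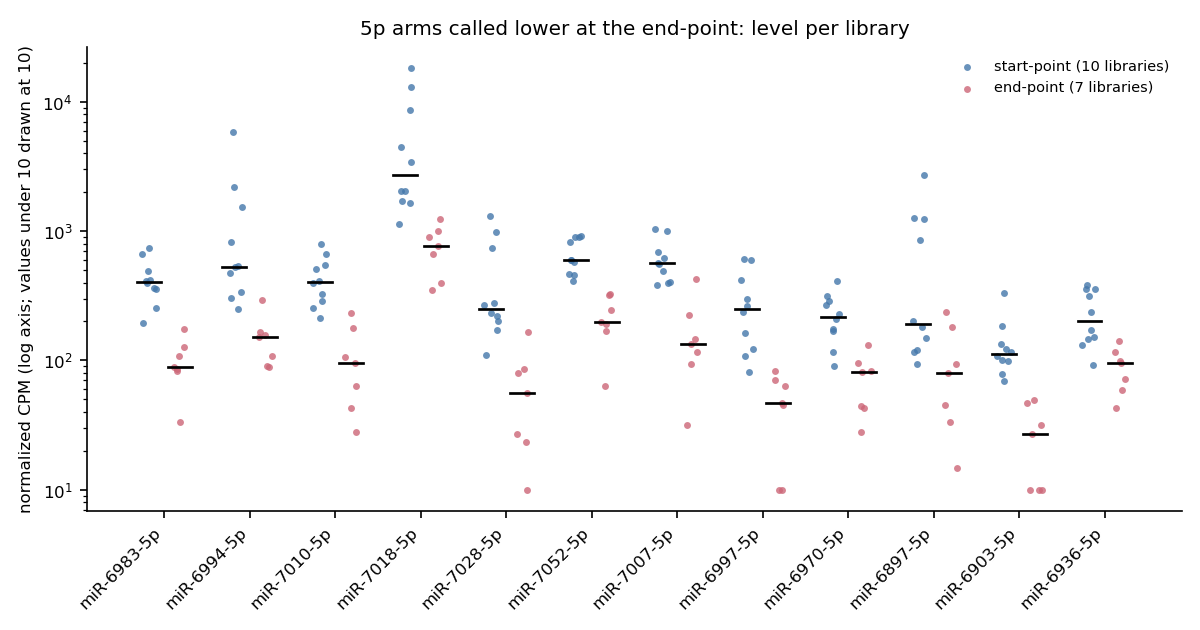
Normalized CPM (log axis) in each library of 12 members called lower, those with the smallest p; blue points are the 10 start-point and red points the 7 end-point libraries, black bars are medians, and values under 10 are drawn at 10. miR-6983-5p, miR-7052-5p and miR-6903-5p show no overlap, and outside miR-7018-5p no end-point level exceeds 429 CPM, that of miR-7007-5p.

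Several abundant members were not called, or were called on scattered values. miR-6976-5p, from an intron of the transcription factor gene Srf, ran at 143, 402 and 91026 CPM at the start-point and 148, 701 and 19279 CPM at the end-point. It stood at 9176 CPM or more in start-point libraries 1, 4, 6 and 7 and at 434 CPM or less in the other 6, and the log2 fold change of −1.94 ± 1.34 (SE) had an adjusted p of 0.270. miR-6898-5p, from the chromatin complex gene Kansl3, ran at 386, 1063 and 2972 CPM and then at 343, 3076 and 67192 CPM (3.69 ± 0.85, SE; adjusted p = 0.00209; with the block 0.278; by limma-voom 0.161). Its 2 highest end-point libraries, 2 and 5, held 44493 and 67192 CPM, and the lowest was below every start-point library. miR-6966-5p, from the iron-sulfur assembly gene Narfl, ran at 609.8, 2995 and 5482 CPM and then at 1547, 2412 and 16363 CPM and was not called (0.75 ± 0.54, SE; adjusted p = 0.294).

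The largest log2 fold changes among members tested and not called were those of miR-6900-5p upward and miR-7092-5p downward. miR-6900-5p ran at 208, 535 and 5945 CPM and then at 300.1, 3306 and 9051 CPM (1.59 ± 0.71, SE; adjusted p = 0.0851). It was called without start-point library 7 (adjusted p = 0.0103) and without end-point library 7 (0.0448). miR-7092-5p ran at 25.5, 80.3 and 1381 CPM and then at 0, 47.6 and 306 CPM (−2.21 ± 0.88, SE; adjusted p = 0.0532). It was called without start-point library 3 (0.0461), start-point library 5 (0.0389) or end-point library 5 (0.0115).

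The calls were also counted by the place of the hairpin. Of the acceptor-end members 45 of 132 tested were called (24 higher, 21 lower), of the whole-intron members 4 of 9 (3 higher, 1 lower), of those overlapping an exon 2 of 6 and of the donor-end members 1 of 3. Over all tested small RNAs 33.8% were called, 17.4% higher and 16.4% lower, close to the share at acceptor ends, and the other places hold too few members to read. The 4 called whole-intron mirtrons were miR-6958-5p, miR-7080-5p and miR-7082-5p, called higher, and miR-7018-5p, called lower. The call of miR-7080-5p rested on end-point libraries 1 and 3 (3390 and 1801 CPM), both under 75000 counts. Its remaining end-point libraries ran from 111 to 177 CPM, within the start-point range of 97.2 to 450 CPM. Of the pair of hairpins in Ankrd52, miR-6914-5p was called higher (2.97 ± 0.72, SE; adjusted p = 0.00293; with the block 0.509) while miR-6915-5p was not called (1.19 ± 0.54, SE; adjusted p = 0.0892). The call of miR-6914-5p leaned on end-point library 2, at 8421 CPM, while the other end-point libraries held at most 761 CPM. Its end-point median, 295 CPM, lay within the start-point range of 69.5 to 316 CPM.

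Both arms of a hairpin come from the same precursor, so the log2 ratio of 5p to 3p level was compared between time points, in limma over all 334 hairpins with both arms tested. The ratio was called in 40 of 118 members (33.9%), higher in 25 and lower in 15, against 28.7% of all hairpins (15.3% higher, 13.5% lower) and 56 of 216 other hairpins (25.9%). With the mouse block 21 members were called, 20 of them among the 40 and in the same direction, against a background of 14.4%. In 19 of the 40 (47.5%) the median log2 ratio over libraries had the opposite sign at the other time point, as in 51 of the 96 called over all hairpins (53.1%).

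The ratio rose most at miR-6916, by 7.35 ± 0.67 log2 units (SE, limma adjusted p = 4.16e-08). There the 3p arm was not called (0.62 ± 0.38, SE; edgeR adjusted p = 0.214) and ran at 54.5, 161 and 262 CPM at the start-point and at 103, 154 and 396 CPM at the end-point (lowest, median, highest). The rise of miR-6916-5p was thus not shared by its partner arm. The same held at miR-7009, where the ratio rose by 4.16 ± 0.58 (SE, limma adjusted p = 2.34e-05) and the 3p arm was not called (−0.21, edgeR adjusted p = 0.742).

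At miR-7012 the arms moved apart in the opposite sense. The 5p arm, from the DENN-domain gene Dennd4b, ran at 11.5, 105 and 287 CPM and then at 0, 17.98 and 63.4 CPM and fell (−2.21 ± 0.68, SE; edgeR adjusted p = 0.0128; with the block 0.142). The 3p arm ran at 23.1, 101 and 231 CPM and then at 254, 1964 and 5831 CPM, a rise of 4.30 (edgeR adjusted p = 3.02e-06). The ratio changed by −5.45 ± 0.73 (SE, limma adjusted p = 1.64e-05), lower in 6 of 6 mice, without overlap between the groups. With 1 library left out, the 5p arm passed the count filter in 10 of 17 fits and was called in all 10.

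In 3 further hairpins among the 6 with the smallest p, the 3p arm was called and the 5p arm was not. At miR-6952 the 3p arm fell by 3.05 on the log2 scale (edgeR adjusted p = 0.00358) and the ratio rose by 4.08 ± 0.71 (SE, limma adjusted p = 2.37e-04). At miR-6959 the 3p arm rose by 2.99 (0.00078) and the ratio changed by −4.23 ± 0.76 (SE, limma adjusted p = 3.86e-04). At miR-7071 the 3p arm rose by 4.18 (1.90e-04) and the ratio changed by −4.11 ± 0.83 (SE, limma adjusted p = 0.00116).

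Over the 118 hairpins, 28 had the 5p arm alone called, 26 the 3p arm alone, 14 both and 50 neither. Over all 334 hairpins the shares were 20.1%, 21.6%, 13.8% and 44.6%. Of the 14, 7 had both arms moving the same way (3 up, 4 down) and 7 had them moving in opposite directions, which held for 7.19% and 6.59% of all hairpins. The 7 opposed hairpins were miR-6970, miR-6986, miR-7012, miR-7052 and miR-7074, with the 5p arm down and the 3p arm up, and miR-7011 and miR-7081, with the 5p arm up and the 3p arm down.

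**Figure D5:**
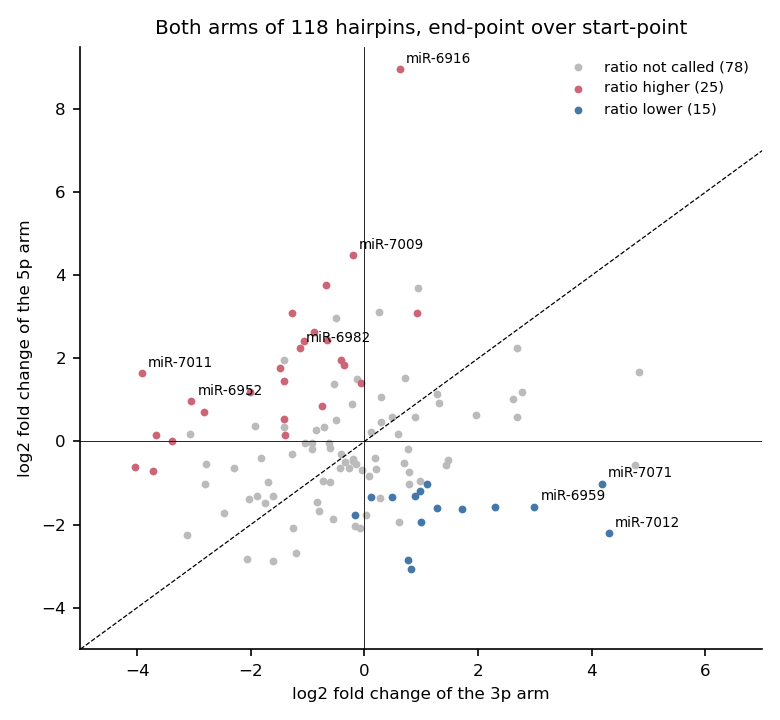
Log2 fold change (end-point over start-point) of the 5p arm against that of the 3p arm for the 118 hairpins with both arms tested; each point is 1 hairpin, red where the 5p to 3p ratio was called higher (25), blue where lower (15) and grey where not called (78), and the dashed line marks equal change. miR-6916 lies near 0 on the 3p axis and at 8.97 on the 5p axis, and miR-7012 at 4.30 and −2.21.

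The members held 140 distinct seeds among 159 sequences, so most seeds were held by a single member. More than 1 member held 16 of the seeds, which took in 35 members, and 30 members shared a seed with a listed miRNA outside the series. The 4 sequences below show 1 shared seed with opposite calls and 1 with the same call.
miR-6941-5p, chr12:112920515-112920535, minus strand, acceptor end of a 1517-base intron of Jag2: cUGGGGGAcugacggguagcu
miR-7024-5p, chr5:33898946-33898966, minus strand, acceptor end of a 102-base intron of Nelfa: uUGGGGGAuggguugcuuggc
miR-7030-5p, chr5:115645578-115645599, plus strand, acceptor end of a 1933-base intron of Rab35: uGGGGAGGuggcugugcuaguc
miR-7075-5p, chr8:107096081-107096101, minus strand, acceptor end of a 97-base intron of Terf2: cGGGGAGGaggacaugguuuu
miR-6941-5p was called higher (2.25 ± 0.60, SE; edgeR adjusted p = 0.00657; with the block 0.16) and miR-7024-5p, with the identical seed UGGGGGA, fell (−2.26 ± 0.72, SE; adjusted p = 0.0167; with the block 0.274). The highest end-point levels of miR-6941-5p, 504, 3709 and 1255 CPM, were in libraries 1, 3 and 7, all under 75000 counts. Its remaining end-point libraries ran from 33.2 to 342 CPM, against 46.3 to 336 CPM at the start-point. miR-7030-5p and miR-7075-5p, which share GGGGAGG, both fell, by 2.47 and 1.63 on the log2 scale (adjusted p = 0.00934 and 0.0119; with the block 0.0277 and 0.057). These 4 members were chosen after their values were seen.

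Seed partners of the members described above varied as widely. miR-6942-5p has the AGGAGGA seed of miR-6916-5p and was not called (−1.33 ± 0.67, SE; adjusted p = 0.123; 0.0297 without end-point library 6). miR-7027-5p, which shares GGAAAGG with miR-7010-5p, was not called (−1.31 ± 0.90, SE; adjusted p = 0.270). miR-6911-5p, which shares GGGCUGA with miR-7028-5p, was not called either (1.14 ± 0.56, SE; adjusted p = 0.118).

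The third holder of that seed, miR-7079-5p, from the ribosomal protein gene Rpl13, was not tested. It ran at 6.10, 17.3 and 80.7 CPM at the start-point and 0, 597 and 841 CPM at the end-point, from 1 to 7 and from 0 to 79 counts. miR-7057-5p, untested as well, shares AGGAGAG with miR-7012-5p and ran at 15.4, 43.5 and 85.3 CPM and then at 0, 95.1 and 588 CPM. miR-7034-5p, which shares CCGGGAG with miR-7071-5p, rose (1.38 ± 0.51, SE; adjusted p = 0.0411; with the block 0.245), and this call was lost in 10 of the 17 fits that leave out 1 library, with adjusted p up to 0.154 without end-point library 6. miR-7071-5p itself was not called (−1.01 ± 0.61, SE; adjusted p = 0.203).

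Sex made no called difference. With time point in the model 0 of 178 members were called by edgeR, as were 0.0% of all small RNAs; 20 members had an unadjusted p under 0.05 against 9.71% of all, and DESeq2 called 3 members against 2.5% of all. The smallest p was that of miR-6976-5p, at −5.69 ± 1.61 log2 units for female against male (SE, edgeR adjusted p = 0.401; DESeq2 adjusted p = 1.31e-04). At the start-point it ran at 218, 9176 and 91026 CPM in 7 male libraries and at 143, 255 and 369 CPM in 3 female libraries (lowest, median, highest), and the ranges overlapped.

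The sex by time point interaction was called by edgeR in 0 of 179 members and in 0.0% of all small RNAs. At an unadjusted p under 0.05 there were 13 members, against 6.36% of all, and DESeq2 called 1 member, against 0.137% of all. That was miR-7002-5p, from the intron-binding spliceosomal gene Aqr, with an interaction of 3.40 ± 0.90 log2 units (SE, edgeR adjusted p = 0.532; DESeq2 adjusted p = 0.00599). At the start-point it ran from 467 to 734 CPM in 3 female and from 1084 to 1876 CPM in 7 male libraries, and at the end-point from 8343 to 13246 CPM in 2 female and from 1293 to 4635 CPM in 5 male libraries. Its rise over time was called (1.95 ± 0.50, SE; edgeR adjusted p = 0.00479), but not with the block (0.261) or in male libraries alone (0.318). The order of the sexes differed between the time points, with no overlap at either, on 2 female end-point libraries.

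Mirtrons and related miRNAs named outside the series were read for comparison. Of 6 listed arms of miR-877, miR-1224 and miR-702, mirtrons long known in mammals, miR-877-5p fell (−1.11 ± 0.42, SE; edgeR adjusted p = 0.0424; with the block 0.256), miR-702-5p rose (1.26 ± 0.40, SE; adjusted p = 0.0178; with the block 0.218) and 4 were not called. Of the pair made without Drosha by other routes, miR-320-3p rose (0.99 ± 0.37, SE; adjusted p = 0.0438; with the block 0.36) and miR-484 was not called (−0.999 ± 0.58, SE; adjusted p = 0.191).

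Markers of the cell types that feces can hold moved as well, and their part in the members' changes was not tested. Of 7 tested epithelial miRNAs 2 were called higher and 3 fell. Those called higher were miR-200b-3p (3.28 ± 1.11, SE; edgeR adjusted p = 0.0260; with the block 0.836) and miR-141-3p (2.86 ± 0.65, SE; 0.00185; with the block 0.176). The median of miR-200b-3p was lower at the end-point, 561 CPM against 1005 CPM. Its end-point libraries ran from 21.4 to 95717 CPM, so its call came from scattered values. Those that fell were miR-192-5p (−2.77 ± 0.62, SE; edgeR adjusted p = 0.00181; with the block 0.057), miR-194-5p (−2.31 ± 0.69, SE; 0.01255; with the block 0.136) and miR-375-3p (−2.30 ± 0.75, SE; 0.0213; with the block 0.0466). The summed level of the 7 ran from 1849 to 19428 CPM at the start-point and from 1158 to 100143 CPM at the end-point. Of 3 tested leukocyte miRNAs the neutrophil-rich miR-223-3p rose (2.38 ± 0.55, SE; adjusted p = 0.00187; with the block 0.212), with the list at 364 to 4258 CPM and 182 to 5771 CPM. Neither miR-142a-3p (−0.84 ± 1.03, SE; adjusted p = 0.550) nor miR-150-5p (0.11 ± 0.54, SE; adjusted p = 0.889) was called. Of 2 smooth muscle miRNAs miR-143-3p rose (2.87 ± 0.55, SE; adjusted p = 5.75e-04), and miR-145a-5p was not called (−0.26 ± 0.60, SE; adjusted p = 0.761); the list summed to 216 to 1225 CPM and 523 to 11208 CPM, most of it miR-143-3p. The red cell list, with 0 of 1 tested called, summed to 118 to 1275 CPM and 33.2 to 719 CPM, and its tested miR-486a-5p was not called (−1.27 ± 0.58, SE; adjusted p = 0.0857). The defining miR-451a, not tested, had a start-point median of 0 and a highest level of 24.4 CPM, and at the end-point a median of 94.1 CPM and a highest level of 459 CPM. No listed marker was at 0 in every library, while the chosen markers miR-200c-3p, miR-142a-5p and miR-144-3p were not among the small RNAs counted.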

How the data were processed

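Small RNA libraries from fecal exosomes of IL-10 KO mice were analysed as deposited by the authors: a table of read counts per small RNA, not normalized, per the file headers and values. The submitters' processing notes name GRCm38 and bcl2fastq; the aligner, the counting and any use of molecular identifiers are not given in the sources used here, so PCR copies may be counted. Members were taken by name, and the members and lists were chosen with earlier results of these data known. Named members were the 12 with the smallest p in each direction, the 6 most abundant, their seed partners, the 6 ratios with the smallest p, the extremes not called and the smallest p for sex and interaction.

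Counts were fitted with edgeR 4.0.16 (TMM factors, filterByExpr by time point, quasi-likelihood test), which kept 1270 small RNAs with 97.8% of all counts; p-values were adjusted by Benjamini-Hochberg over all tested, and 0.05 was the threshold. Normalized CPM are counts scaled to the product of a library's total over tested small RNAs and its TMM factor. Arm ratios used log2 CPM with a prior count of 2 in limma 3.58.1. DESeq2 1.42.0 (R 4.3.3) and limma-voom were alternatives, as were other scalings, filters, male libraries alone, a random draw to equal totals and leaving out libraries; dispersions from estimateDisp were an alternative chosen after seeing the data. The fits were tested on simulated data. Libraries of 1 mouse at both time points were paired by the mouse identity in the labels: over 7 such pairs from 6 mice the mean correlation of deviations was 0.094 (−0.072 to 0.26), against −0.011 between mice. The samples are single mice except for the pair labelled mouse 1, so p-values treat the start and end libraries of a mouse as independent unless the block is named. For the direction of a member in each mouse, log2 levels were compared, with the end-point libraries of mouse 1 averaged. Floors of 3 counts cover counting error only.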

Additional observations from a re-analysis of the deposited data

Results flagged for a closer look

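In miR-7078-5p, start-point library 4 stood at 7227 CPM, far above the other 9, which ran from 65.4 to 625.2 CPM; the rise at the end-point was 5.82 log2 units with this library and 7.41 without it. In miR-7052-5p, end-point library 4 stood at 63.4 CPM, below the other 6, which ran from 168 to 324 CPM; the fall was −1.61 log2 units with this library and −1.39 without it (edgeR adjusted p = 0.00513). A gap of this kind was looked for in 84 groups of libraries and found in 2, and chance gives about 1 in 20.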

How the results depend on the processing

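The counts of members called higher (32) and lower (27) at the end-point moved most with these choices. With library totals only they were 21 and 45. The replicate block on mouse identity gave 8 and 8, and 8 and 9 when the later-numbered mouse 1 library was dropped. Male libraries only gave 19 and 10, and a draw of every library to the smallest total gave 14 and 8, with fewer members tested (71). By limma-voom 14 were called higher. Leaving out each library in turn gave 26 to 34 higher and 21 to 31 lower. The 5p to 3p ratio was called in 40 members, in 21 with the replicate block and in 31 to 42 without each library in turn. For sex DESeq2 called 3 members and for the interaction 1, against 0 by edgeR in both. The difference in share was 1.34 points without miR-7078-5p, the member with the highest mean. The difference in members detected was −6.0 without the libraries under 75000 counts and with a deeper draw. The log2 fold change of miR-6966-5p, which was not called, turned to −0.092 with the block and that library dropped, and that of miR-6911-5p to −0.32 without the libraries under 75000 counts. The cause was not tested. In every fit that tested them, other than those leaving out libraries, 7 of the 32 and 5 of the 27 were called; in all 17 fits that leave out 1 library, 17 and 19 were. Of the members given above with an adjusted p for the block alone, miR-7030-5p kept its call and the others lost it. At the end-point the floor of 3 counts, 27.0 to 64.3 CPM, limits what a fall can show.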
